A study of Mus musculus with 8 samples.

Results

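The insulin-like growth factor (IGF) family was followed through 72 h of c-Src induction. Its 10 members here are Igf1, Igf2, the receptors Igf1r and Igf2r, and the binding proteins Igfbp2, Igfbp3, Igfbp4, Igfbp5, Igfbp6 and Igfbp7. They were found by gene name on the array, where they hold 15 of the 55681 probes and 29 of the 59305 spots that are not controls. The cells were mouse embryonic fibroblasts with the genotype Csk-/- at every time, so the uninduced cells also lack Csk, the kinase that restrains Src family kinases. They had been transfected with pBKT2-c-Src, and c-Src was switched on with doxycycline (Dox, 1 µg/ml) for 0 h, 6 h, 24 h or 72 h. Each time had 2 arrays, 8 in all. The labels name 1 kind of knockout fibroblast and no cells without the vector, without Dox at the later times, or with Csk. Dox, time in culture and c-Src therefore cannot be told apart.

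IGF1 and IGF2 are secreted growth factors that signal for growth and survival mainly through the IGF1 receptor, a tyrosine kinase. The IGF2 receptor, also the cation-independent mannose-6-phosphate receptor, carries lysosomal enzymes and removes IGF2. The secreted binding proteins hold IGFs away from the receptor or deliver them, and proteases such as PAPP-A cut them to release the ligand. Fibroblasts are a common source of IGF1 and of several binding proteins.

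Values are scaled signals, that is, the processed signal of a probe as a percent of its array's 75th percentile. They compare times within a probe and not one probe with another. Src had scaled signals of 39.3 and 43.7 at 0 h, 1103 and 1126 at 6 h, 981 and 992 at 24 h, and 815 and 812 at 72 h. It rose at all 3 induced times, by 4.75 ± 0.06 (adjusted p = 1.42e-05) on the log2 scale at 6 h. The 1 probe for Csk was, on all 8 arrays, not well above background. Of the 12 fibroblast markers, 10 were measured, while Thy1 and Prrx1 were not well above background. Fibroblast markers moved with time themselves. Their summed scaled signal was 97000 to 103971 at 0 h, 103431 to 105326 at 6 h, 87180 to 90735 at 24 h and 81264 to 82090.0 at 72 h. At 72 h 8 of the 10 were called lower and 2 (Vim, Twist1) higher than at 0 h. Of all genes tested, 24.6% were called lower and 27.5% higher at 72 h. These shares stand beside the 72 h counts of the other marker lists as well. Of the epithelial markers 5 of 9 were measured, with summed signals of 511 to 524 at 72 h and 357 to 426 at 0 h, and 2 were higher and 2 lower at 72 h. Of the macrophage markers 4 of 7 were measured, summing to 1741 to 1817 at 72 h and 1692 to 1812 at 0 h, a sum that Itgam dominates. Of these 4, 2 were called higher at 72 h and 0 lower. At 24 h the counts were 3 and 0, where 21.4% of all genes were called higher and 20.1% lower. Csf1r was higher at 72 h by 0.44 ± 0.08 (adjusted p = 0.00536). Cd68 was higher at 72 h by an approximate bound of 2.92-fold (adjusted p = 0.000133 by limma), set as for Igfbp2 below. At 0 h Cd68 was not well above background, so it was tested only through its signals at later times. Its call and adjusted p therefore add no support to the bound, and the 2 called higher at 72 h include it. The sums were 223 to 225 at 72 h and 230.3 to 238 at 0 h for endothelium (3 of 6 measured), and 57.8 to 59.1 at 72 h and 54.2 to 55.2 at 0 h for skeletal muscle (1 of 6). For adipocytes (3 of 6) the sums were 192 to 199 at 72 h and 92.1 to 94.0 at 0 h. Of these 3, Fabp4 was higher at 72 h, by 1.91 ± 0.13 (adjusted p = 0.000185), and Pparg and Cebpa were lower, with -0.45 ± 0.06 (adjusted p = 0.00166) and -1.37 ± 0.15 (adjusted p = 0.000777). Epcam, Cdh1, Ptprc, Adgre1, Cdh5, Myod1 and Adipoq, which define those cell types, were not well above background. The part of these shifts in the results below was not tested. In bulk RNA, fewer cells of a type and less RNA per cell cannot be told apart.

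The sequences that carry the results are shown first. Igf1 has 5 probes and Igfbp2 has 2, and they did not all move alike, so the first 30 bases of each 60-base probe are given, 5′ to 3′. A_55_P2031631 and A_55_P2085984 overlap by 40 bases and so are not independent readings. Capitals mark the bases that both of their printed stretches hold. The file assigns A_55_P2085979 to Igf1 transcript variant 2 and the other Igf1 probes to variant 1.
Igf1 A_55_P2085979: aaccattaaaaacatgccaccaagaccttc
Igf1 A_55_P2031631: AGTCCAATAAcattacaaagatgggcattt
Igf1 A_55_P2085984: cctaccaaataacaataataAGTCCAATAA
Igf1 A_55_P2031636: agaaatgtaaatggaataagaggtcagctg
Igf1 A_55_P2085974: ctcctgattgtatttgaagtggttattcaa
Igfbp2 A_55_P2056729: catctcttctacaacgagcagcaggagact
Igfbp2 A_66_P135391: aggagttcccagttttgacacatgtattta

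By the files' mm9 coordinates the Igf1 probes lie on chromosome 10, at chr10:87378456-87378515 for the variant 2 probe and at chr10:87393581-87393640, chr10:87393561-87393620, chr10:87395924-87395983 and chr10:87399581-87399640 for the variant 1 probes in the order printed. The Igfbp2 probes lie at chr1:72898677-72898736 and chr1:72898813-72898872. The other member probes lie at chr7:75378461-75378520 (Igf1r), chr17:12875253-12875263 (Igf2r, 11 bases of the probe only), chr11:7106594-7106653 (Igfbp3), chr11:98913334-98913393 (Igfbp4), chr15:101979852-101979911 (Igfbp6), chr5:77778271-77778330 (Igfbp7), chr7:149839661-149839720 (Igf2) and chr1:72904829-72904888 (Igfbp5). No mm9 gene annotation was used here, so exon and UTR positions of the probes are not given.

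Promoters are shown for the members with the largest called fall and rise and for Igf1, as the 250 bases before the RefSeq start site (GRCm38.p6, read 5′ to 3′ along the gene). All 10 members matched the RefSeq table, with 14 start sites of which 2 belong to Igfbp2. Capitals mark 4 short motifs searched on both strands of the 300 bases from 250 before to 50 after each start: TGANTCA for AP-1, TGTTTAC for forkhead factors, GGGCGG for Sp1 and TATAAA for the TATA box.
Igfbp2 chr1:72824230-72824479 (plus strand): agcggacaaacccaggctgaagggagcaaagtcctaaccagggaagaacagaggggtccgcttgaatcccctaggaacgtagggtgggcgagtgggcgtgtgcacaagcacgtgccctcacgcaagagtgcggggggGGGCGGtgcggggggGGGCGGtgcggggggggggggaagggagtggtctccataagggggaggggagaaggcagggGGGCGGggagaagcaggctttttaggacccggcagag
Igfbp2 chr1:72825137-72825386 (plus strand): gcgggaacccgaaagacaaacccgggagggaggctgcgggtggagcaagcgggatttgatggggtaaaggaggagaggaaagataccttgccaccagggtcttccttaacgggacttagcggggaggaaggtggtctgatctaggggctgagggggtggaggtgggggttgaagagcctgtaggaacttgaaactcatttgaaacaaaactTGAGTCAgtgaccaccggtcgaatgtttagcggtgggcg
Igfbp4 chr11:99040994-99041243 (plus strand): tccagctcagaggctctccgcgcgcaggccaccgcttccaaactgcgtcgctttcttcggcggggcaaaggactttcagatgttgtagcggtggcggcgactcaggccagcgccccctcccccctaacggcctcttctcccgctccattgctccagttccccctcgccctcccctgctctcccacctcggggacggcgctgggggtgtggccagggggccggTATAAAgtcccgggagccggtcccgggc
Igf1 chr10:87860861-87861110 (plus strand): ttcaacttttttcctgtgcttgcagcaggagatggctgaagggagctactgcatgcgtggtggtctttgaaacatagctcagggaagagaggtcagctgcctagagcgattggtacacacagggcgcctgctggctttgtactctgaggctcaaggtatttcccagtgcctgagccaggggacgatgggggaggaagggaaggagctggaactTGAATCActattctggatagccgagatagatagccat
Igf2r chr17:12769707-12769956 (minus strand): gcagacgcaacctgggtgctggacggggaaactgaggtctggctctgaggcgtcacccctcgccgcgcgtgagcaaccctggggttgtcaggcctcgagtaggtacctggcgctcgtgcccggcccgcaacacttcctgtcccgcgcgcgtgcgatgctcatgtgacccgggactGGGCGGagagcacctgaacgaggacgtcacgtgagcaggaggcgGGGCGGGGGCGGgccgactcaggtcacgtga

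The Igfbp2 windows hold 3 Sp1 matches at the first start site and 1 AP-1 match 39 bases before the second. Igfbp4 holds a TATA match 28 bases before its start, Igf1 an AP-1 match at 37 bases, and Igf2r 3 Sp1 matches. The Igfbp3 and Igfbp5 windows hold none of the 4. Over all 14 member windows, 6 hold Sp1, 2 AP-1, 2 TATA and 0 forkhead, where 35.7%, 7.81%, 13.6% and 3.65% of the 32851 windows in the table do. A match is a run of letters and not a measured binding site.

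Across the family, the binding proteins Igfbp2 and Igfbp4 were lower from 24 h on, Igfbp3, Igfbp6 and Igf1 were lower at 72 h, and the receptor Igf2r rose. Igf1r and Igfbp7 passed the test at no time in the setting reported here. Of the 10 genes, 8 (13 probes) were well above background on both arrays of 1 or more times and were tested with limma over all 20840 genes. At 6 h none of the 8 was called against 0 h at an adjusted p under 0.05, where 17.6% of all genes were (10.3% higher and 7.24% lower), and 2 had an unadjusted p under 0.05. At 24 h 1 was higher and 2 lower than at 0 h, against 41.5% of all genes called (21.4% higher and 20.1% lower). At 72 h 1 was higher and 5 lower, 6 of 8 in all, where 52% of all genes were called, 27.5% higher and 24.6% lower. The median difference of the 8 from 0 h was -0.06 at 6 h, -0.23 at 24 h and -0.39 at 72 h on the log2 scale, beside medians over all genes of 0.00, -0.02 and 0.00. Igfbp2 passed the filter on dim probes through 0 h and 6 h alone, so its calls at 24 h and 72 h support nothing about the family. The counts and medians above include it. Igf2 and Igfbp5 could not be tested, so none of these counts covers all members.

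**Figure D1:**
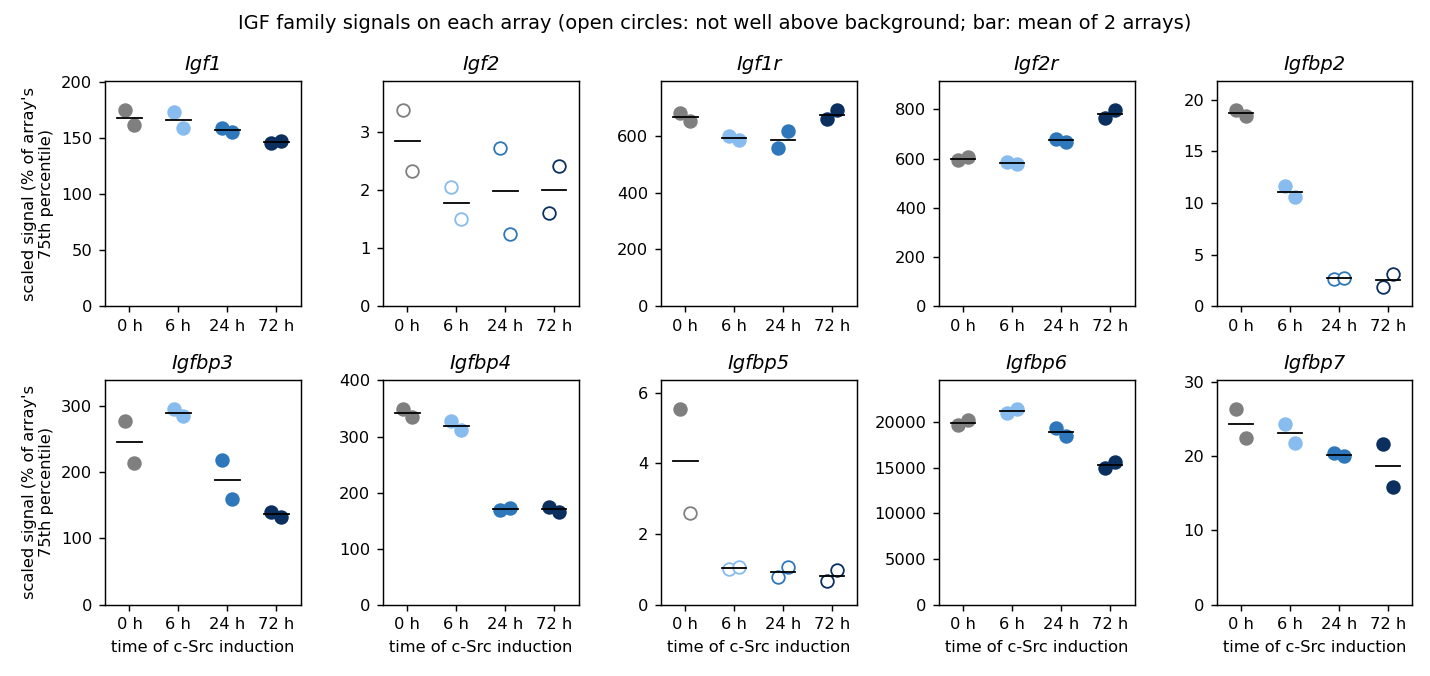
Scaled signal (percent of the array's 75th percentile, linear axes from 0) of the probe that stands for each of the 10 genes, on each of the 8 arrays at 0, 6, 24 and 72 h of induction. Open circles are arrays where the probe was not well above background, and bars are means of 2 arrays. Igfbp2 and Igfbp4 drop between 6 h and 24 h, while Igf2r climbs at 24 h and again at 72 h.

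Of the ligands, Igf2 gave signals not well above background on all 8 arrays, with scaled signals of 1.24 to 3.38. No level or change of Igf2 can be given from these arrays. Igf1 was measured by all 5 probes, and the answer depended on the probe. The brightest, the variant 2 probe A_55_P2085979, had scaled signals of 175 and 161 at 0 h, 173 and 159 at 6 h, 158 and 156 at 24 h, and 146 and 147 at 72 h. These fell by 0.20 on the log2 scale at 72 h against 0 h, with an SE of 0.06 and an adjusted p of 0.0423 by limma. The 72 h arrays lay below both 0 h arrays, but this call was lost in 8 of 20 alternative settings. Under median scaling the difference was -0.018, with an adjusted p of 0.906 by limma. The call was also lost in the fits without the first 0 h array or without any 1 array of 24 h or 72 h, with differences of -0.21 to -0.14 and adjusted p of 0.062 to 0.179 by limma. At 6 h and 24 h the probe differed from 0 h by -0.02 ± 0.06 (adjusted p = 0.868) and -0.10 ± 0.06 (adjusted p = 0.28).

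The variant 1 probes moved further. With each probe as its own feature (28610 in the fit), 2 of the 5 Igf1 probes were called higher at 6 h, where 8.99% of all probes were. Probe A_55_P2031631 had 33.1 and 35.7 at 0 h, 51.3 and 49.8 at 6 h, 43.96 and 39.1 at 24 h, and 18.3 and 18.6 at 72 h. Probe A_55_P2085984, which shares 40 bases with it, had 29.1 and 28.6 at 0 h, 41.2 and 41.8 at 6 h, 36.5 and 31.8 at 24 h, and 15.7 and 14.4 at 72 h. For both, the 6 h arrays were the highest and the 72 h arrays the lowest, without overlap. Against 0 h, A_55_P2031631 differed by 0.56 ± 0.07 (adjusted p = 0.00932) at 6 h, 0.27 ± 0.07 (adjusted p = 0.0335) at 24 h and -0.90 ± 0.07 (adjusted p = 0.000379) at 72 h. A_55_P2085984 differed by 0.53 ± 0.08 (adjusted p = 0.0139), 0.24 ± 0.08 (adjusted p = 0.0633) and -0.94 ± 0.08 (adjusted p = 0.00043) at the same times. The third probe, A_55_P2085974, has the highest coordinate on chromosome 10 and had 38.01 and 36.4 at 0 h, 48.6 and 51.4 at 6 h, 33.9 and 30.7 at 24 h, and 8.67 and 11.3 at 72 h. Its 72 h arrays were 3.75-fold lower than those of 0 h, with differences of 0.43 ± 0.13 (adjusted p = 0.0877) at 6 h and -1.91 ± 0.13 (adjusted p = 0.000229) at 72 h. The dimmest, A_55_P2031636, had 5.55 and 4.78 at 0 h, 5.91 and 5.65 at 6 h, 5.64 and 5.44 at 24 h, and 3.88 and 3.58 at 72 h and differed by -0.47 ± 0.09 (adjusted p = 0.00684) at 72 h. All 5 probes were thus called lower at 72 h than at 0 h, where 23.6% of all probes were, with differences of -0.20 to -1.91. They are probes of 1 gene and not 5 separate results. In this fit the variant 2 probe passed narrowly (adjusted p = 0.0478 by limma). The 72 h signals of the dimmest probe lay among the arrays' weakest passing signals, 2.63 to 4.01. Between 72 h and 24 h the 4 variant 1 probes differed by -0.57 to -1.70 and were called lower, where 9.89% of all probes were, while the variant 2 probe differed by -0.10 ± 0.06 (adjusted p = 0.312). With the 5 probes averaged, Igf1 was called higher at 6 h (0.33, adjusted p = 0.0167 by limma), opposite in sign to its brightest probe.

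**Figure D2:**
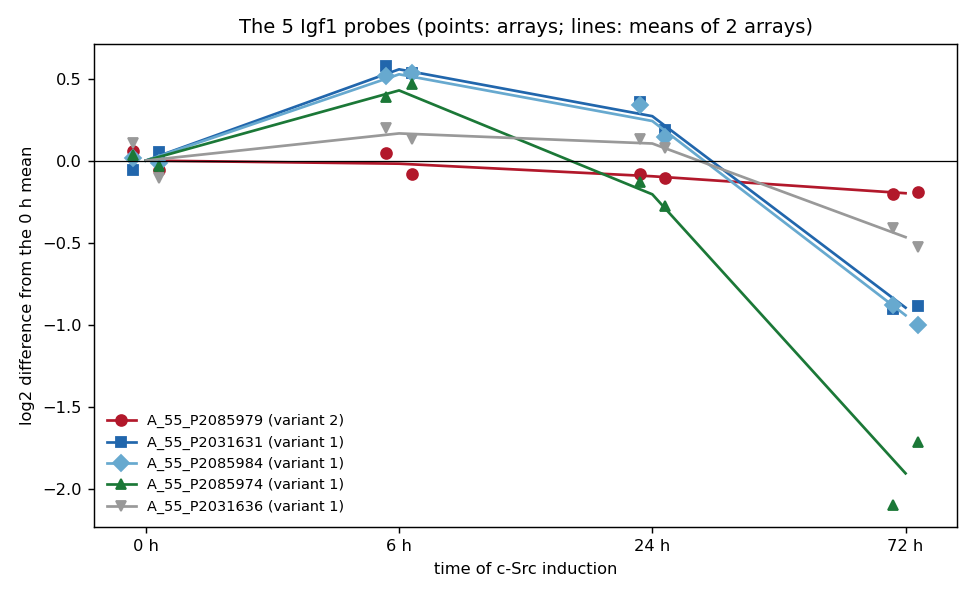
Log2 difference of each of the 5 Igf1 probes from its own 0 h mean, on each array (points) with means of 2 arrays (lines), against time of induction (not to scale). The means of the variant 2 probe differ from 0 h by -0.02 to -0.20, whereas those of the variant 1 probes are above it at 6 h and below it at 72 h.

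Of the receptors, Igf1r, which carries the growth signal, was not called at any time in the setting reported here. Its scaled signals were 680.1 and 654 at 0 h, 600.2 and 585 at 6 h, 556 and 617 at 24 h, and 661 and 690.3 at 72 h. The 6 h and 24 h arrays all lay below those of 0 h, with differences of -0.17 ± 0.06 (adjusted p = 0.13) and -0.19 ± 0.06 (adjusted p = 0.0644), and the 72 h arrays overlapped those of 0 h. At 72 h the difference was 0.02 ± 0.06 (adjusted p = 0.833), with a 95% interval of -0.14 to 0.18. Igf1r was called lower than at 0 h in 5 of 20 alternatives at 24 h (adjusted p of 0.017 to 0.0303 by limma) and in 2 at 6 h (0.0385 and 0.0478). One of the 5 left out the second 24 h array, with a difference of -0.26.

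Igf2r rose at 24 h and 72 h. Its probe is printed 10 times on the array, and the spots of an array had coefficients of variation of 4.31% to 8.77%. The averaged scaled signals were 593 and 607 at 0 h, 586 and 578 at 6 h, 679 and 669 at 24 h, and 767 and 796 at 72 h. The 4 arrays of 24 h and 72 h lay above all 4 of 0 h and 6 h. The difference from 0 h was 0.17 ± 0.04 (adjusted p = 0.026) at 24 h and 0.38 ± 0.04 (adjusted p = 0.000999) at 72 h, a 1.30-fold rise at 72 h. The 72 h call held in 20 of 20 alternatives, and the 24 h call was lost in 10 of 20, including the loss of any 1 array of 0 h, 6 h or 24 h (0.15 to 0.19, adjusted p of 0.0525 to 0.11 by limma). Both later steps passed as well, with 0.21 ± 0.04 (adjusted p = 0.0201) between 24 h and 6 h, and 0.21 ± 0.04 (adjusted p = 0.024) between 72 h and 24 h. The first of these steps was lost without any 1 array of 6 h or 24 h (adjusted p of 0.0571 to 0.0983 by limma), and the second without any 1 array of 6 h, 24 h or 72 h (0.053 to 0.124). For the 8 genes these steps gave 1 higher and 2 lower between 24 h and 6 h (26.2% of all genes called, 12.6% higher and 13.6% lower), and 1 higher and 1 lower between 72 h and 24 h (21.6%, of which 10.8% higher and 10.9% lower).

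**Figure D3:**
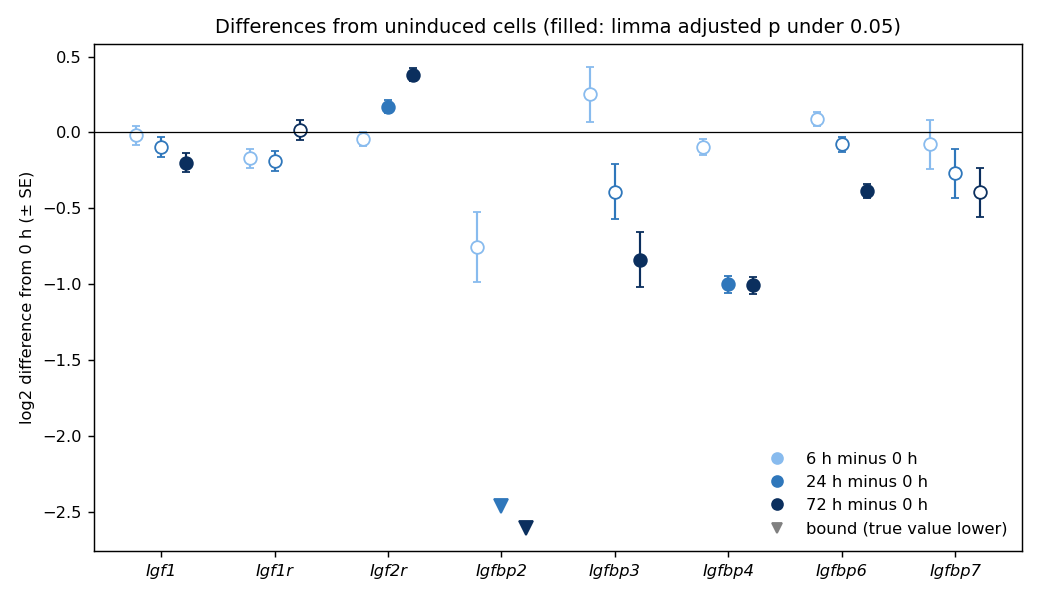
Log2 difference from 0 h, with its standard error, of the 8 tested genes at 6 h, 24 h and 72 h (2 arrays a time). Filled points have a limma adjusted p under 0.05. Igf2r is the called gene above 0. The triangles of Igfbp2 at 24 h and 72 h are approximate bounds (5.50-fold and 6.07-fold lower), since its signals there were not well above background.

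Igfbp2, a binding protein that prefers IGF2 and also carries an integrin-binding motif, was lower at 24 h and 72 h. Probe A_55_P2056729 had scaled signals of 18.98 and 18.4 at 0 h, 11.6 and 10.55 at 6 h, 2.64 and 2.75 at 24 h, and 1.85 and 3.12 at 72 h. The second probe, A_66_P135391, had 20.5 and 20.5 at 0 h, 11.2 and 10.1 at 6 h, 0.77 and 1.05 at 24 h, and 0.68 and 0.96 at 72 h. For both probes the 6 h arrays lay between those of 0 h and 24 h without overlap, and the arrays of 24 h and 72 h overlapped each other. At 6 h the first probe differed by -0.75 ± 0.23 (adjusted p = 0.0789), and the second, in the fit of all probes, by -0.94 ± 0.21 (adjusted p = 0.0381). At 24 h and 72 h both probes were not well above background on both arrays, so only a bound can be given. It sets the 0 h mean against the weakest signal that passed as well above background on each later array, or the probe's own signal where that is higher. The bound is approximate, since some higher signals did not pass. The weakest passing scaled signals were 2.63 to 4.01, yet Tsc2 at 6 h, with 4.84 and 5.03, passed on 1 of 2 arrays. By that bound the first probe was lower than at 0 h by about 5.50-fold at 24 h and about 6.07-fold at 72 h (adjusted p of 0.000555 and 0.000267 by limma). The second was lower by about 6.02-fold and about 6.65-fold on the same bound. With normexp background correction, which adds an offset of 50 to each signal, the fitted difference of the first probe was -0.94 at both times. Its processed signals were 72.3 and 70.6 at 0 h, so this offset shrinks the difference. All 19 alternatives that could be run kept both calls. The probe passed the filter on dim probes through 0 h and 6 h alone, so these calls and their adjusted p add no support to the bound.

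Igfbp3, the main carrier of IGFs in serum, was lower at 72 h. Its scaled signals were 277 and 214 at 0 h, 295 and 284 at 6 h, 218 and 159 at 24 h, and 140.1 and 133 at 72 h. The 72 h arrays were the lowest, those of 24 h overlapped those of 0 h, and the 0 h pair was itself spread widely. The difference from 0 h was 0.25 ± 0.18 (adjusted p = 0.393) at 6 h, -0.39 ± 0.18 (adjusted p = 0.14) at 24 h and -0.84 ± 0.18 (adjusted p = 0.0112) at 72 h. At 24 h it was called without the first 24 h array, at -0.62 (adjusted p = 0.043 by limma). The 72 h call was lost without the first 0 h array, at -0.65 (adjusted p = 0.0505), without the second 72 h array, at -0.80 (adjusted p = 0.0558), and under median scaling, at -0.66 (adjusted p = 0.0532). Against 6 h, 24 h differed by -0.64 ± 0.18 (adjusted p = 0.0502), just short of the threshold.

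Igfbp4, a binding protein that inhibits IGF action and is the classical substrate of PAPP-A, was lower at 24 h and 72 h. Its scaled signals were 349 and 334 at 0 h, 328 and 311 at 6 h, 169 and 173 at 24 h, and 175 and 165 at 72 h. The arrays of 24 h and 72 h lay far below those of 0 h and 6 h and overlapped each other. The difference from 0 h was -0.10 ± 0.05 (adjusted p = 0.282) at 6 h, -0.9998 ± 0.05 (adjusted p = 0.000186) at 24 h and -1.01 ± 0.05 (adjusted p = 9.2e-05) at 72 h. Between 24 h and 6 h it was -0.90 ± 0.05 (adjusted p = 0.00075), and between 72 h and 24 h -0.01 ± 0.05 (adjusted p = 0.946). The calls at 24 h and 72 h held in 20 of 20 alternatives.

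Igfbp6, which binds IGF2 with marked preference, was lower at 72 h. Its scaled signals were 19718 and 20187 at 0 h, 21022 and 21437 at 6 h, 19309.9 and 18505 at 24 h, and 14932 and 15637 at 72 h. The 72 h arrays lay below all others. The difference from 0 h was -0.08 ± 0.05 (adjusted p = 0.254) at 24 h and -0.38 ± 0.05 (adjusted p = 0.00145) at 72 h. Between 72 h and 24 h it was -0.31 ± 0.05 (adjusted p = 0.0121), a call lost without the first array of 24 h or of 72 h (adjusted p of 0.0548 to 0.0748 by limma). Under median scaling the 72 h call against 0 h was lost, with a difference of -0.20 and an adjusted p of 0.0834.

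Igfbp7, a related protein with low affinity for IGFs, had 26.3 and 22.4 at 0 h, 24.3 and 21.8 at 6 h, 20.4 and 19.96 at 24 h, and 21.6 and 15.8 at 72 h. The 72 h arrays lay below those of 0 h but the difference of -0.39 ± 0.16 (adjusted p = 0.0897) did not pass the test. Without the first 72 h array it was called, at -0.62 (adjusted p = 0.0186 by limma), and over the 20 alternatives it ranged from -0.62 to -0.17. Igfbp5, which binds extracellular matrix, was well above background on 1 of 8 arrays, at 0 h. Its scaled signals were 5.54 and 2.60 at 0 h, 1.02 and 1.06 at 6 h, 0.78 and 1.06 at 24 h, and 0.68 and 0.97 at 72 h. With 1 array measured at 0 h and none later, no fold is given.

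Proteases that cut IGF binding proteins, and their regulators, had members called in both directions. This list of 15 genes, drawn up with earlier results of these data known, had 11 tested. At 6 h 5 were higher and 1 lower than at 0 h, at 24 h 4 and 2, and at 72 h 5 and 3, where 17.6%, 41.5% and 52% of all genes were called. The median difference of the list was 0.21 at 6 h, 0.00 at 24 h and 0.22 at 72 h, beside 0.00, -0.02 and 0.00 over all genes. Pappa encodes PAPP-A and had scaled signals of 13.5 and 16.8 at 0 h, 23.4 and 24.1 at 6 h, 7.27 and 7.40 at 24 h, and 3.51 and 4.29 at 72 h. It was higher at 6 h, with 0.66 ± 0.13 (adjusted p = 0.0257) and lower at 24 h, with -1.03 ± 0.13 (adjusted p = 0.00233) and 72 h, with -1.95 ± 0.13 (adjusted p = 0.00018), where 1 of 2 arrays was well above background. Pappa2, a second such protease that cuts IGFBP3 and IGFBP5, had 725 and 685 at 0 h, 548 and 488 at 6 h, 142 and 149 at 24 h, and 83.8 and 95.03 at 72 h. The groups did not overlap, and Pappa2 was 4.84-fold lower at 24 h and 7.90-fold lower at 72 h than at 0 h, with differences of -2.28 ± 0.09 (adjusted p = 9.64e-05) and -2.98 ± 0.09 (adjusted p = 2.77e-05). Stc2, whose product inhibits PAPP-A, had 14.99 and 16.5 at 0 h, 19.8 and 24.1 at 6 h, 35.98 and 40.9 at 24 h, and 56.8 and 52.7 at 72 h and rose by 1.80 ± 0.12 (adjusted p = 0.000166) at 72 h. Mmp3, stromelysin 1, was higher by 3.15 ± 0.07 (adjusted p = 2.19e-05) at 24 h and by 1.34 ± 0.07 (adjusted p = 7.09e-05) at 72 h. Adam9 was higher by 0.97 ± 0.05 (adjusted p = 0.000168) at 24 h, and Plat, tissue plasminogen activator, was lower, with -1.06 ± 0.11 (adjusted p = 0.000794) at 72 h.

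Signalling components below the IGF1 receptor made a list of 31 genes with 29 tested. At 6 h 2 were higher and 2 lower, at 24 h 4 and 7, and at 72 h 7 and 13, with medians of 0.00, -0.09 and -0.14. The same shares and medians over all genes apply, 17.6%, 41.5% and 52% called and 0.00, -0.02 and 0.00. The largest called fall at 72 h was that of the receptor substrate Irs1, at -0.95 ± 0.07 (adjusted p = 0.00024), with scaled signals of 271 and 259.6 at 0 h, 238 and 254 at 6 h, 230.1 and 207 at 24 h, and 134 and 140.4 at 72 h. The docking protein Gab1 differed by -0.89 ± 0.12 (adjusted p = 0.00254) at 24 h and -0.84 ± 0.12 (adjusted p = 0.00213) at 72 h. The transcription factor Foxo1, which AKT holds out of the nucleus, was lower at all 3 times, with differences of -0.34 ± 0.05 (adjusted p = 0.00955), -0.59 ± 0.05 (adjusted p = 0.000541) and -0.80 ± 0.05 (adjusted p = 0.000129). The kinase genes Akt1 and Akt2 were lower at 72 h, with -0.26 ± 0.05 (adjusted p = 0.00719) and -0.56 ± 0.06 (adjusted p = 0.000628). At 72 h Tsc2, a brake on mTOR signalling, was higher than at 0 h by an approximate bound of 1.80-fold (adjusted p = 0.0278 by limma). Both 0 h arrays of Tsc2 were not well above background. Its probe passed the filter on dim probes through 24 h and 72 h alone. The call and its adjusted p therefore add no support to the bound, and the 7 called higher at 72 h include Tsc2. Grb14, an inhibitory adaptor, was lower at 6 h, with -0.42 ± 0.06 (adjusted p = 0.011), when the ubiquitin ligase Mdm2 and the phosphatase Ptpn11 were higher by 0.25 ± 0.05 (adjusted p = 0.0261) and 0.24 ± 0.04 (adjusted p = 0.0196). At 24 h Mdm2 was higher by 0.36 ± 0.05 (adjusted p = 0.00293), and Akt2 was lower, with -0.36 ± 0.06 (adjusted p = 0.00456). Among 11 further genes listed beside the family, not all of them members of it, 5 were tested. The RNA-binding protein gene Igf2bp1 was higher by 0.54 ± 0.07 (adjusted p = 0.00225) at 24 h and 0.70 ± 0.07 (adjusted p = 0.000595) at 72 h. Igf2bp2 was higher by 0.22 ± 0.07 (adjusted p = 0.049) at 72 h, and Insr, Ins2 and Igf2bp3 were not called against 0 h. That list had 0 higher and 0 lower at 6 h, 1 and 0 at 24 h, and 2 and 0 at 72 h, with medians of 0.18, 0.16 and 0.12, beside the 17.6%, 41.5% and 52% of all genes called.

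**Figure D4:**
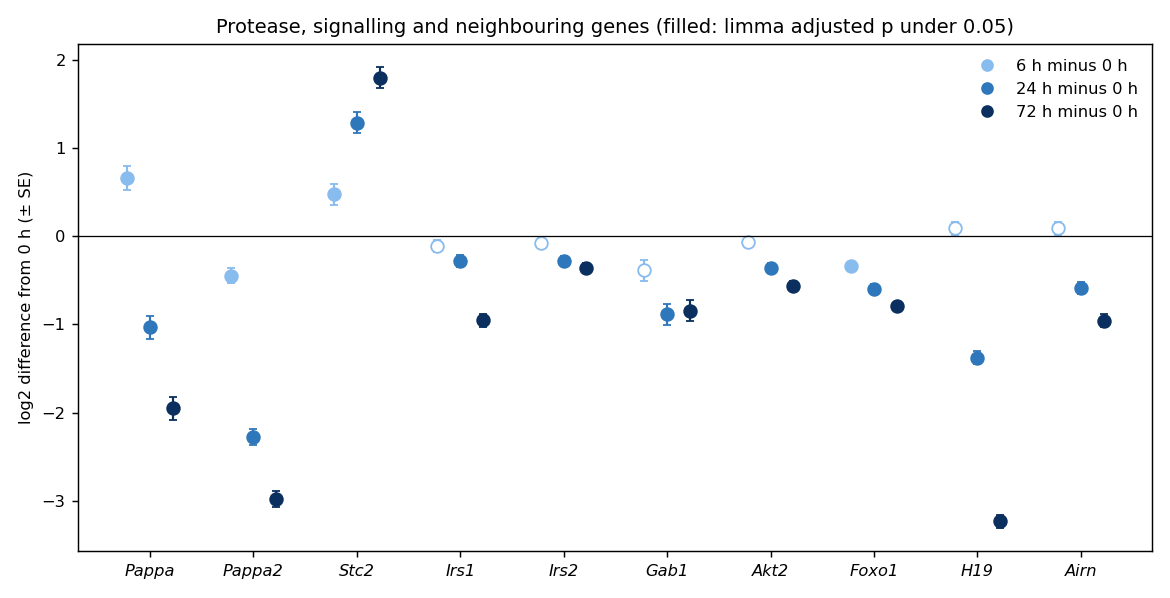
Log2 difference from 0 h, with its standard error, at 6 h, 24 h and 72 h for 10 genes of the protease, signalling and neighbour lists (2 arrays a time, filled points with a limma adjusted p under 0.05). Pappa2 and H19 reach about -3 at 72 h (-2.98 and -3.23), while Stc2 (1.80) lies above 0.

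Genes in the regions of the members and RNAs antisense to them gave 5 tested genes of 11, with 0 higher and 1 lower at 6 h, 0 and 3 at 24 h, and 0 and 3 at 72 h. Their medians were 0.05, -0.59 and -0.96, beside 0.00, -0.02 and 0.00 over all genes, of which 7.24%, 20.1% and 24.6% were called lower. H19, the imprinted RNA next to Igf2, had scaled signals of 51.5 and 53.7 at 0 h, 56.8 and 54.8 at 6 h, 21.7 and 18.9 at 24 h, and 5.62 and 5.57 at 72 h. It was 9.39-fold lower at 72 h than at 0 h, with -3.23 ± 0.08 (adjusted p = 1.89e-05), and all 4 of its probes that were measured were lower at 24 h and 72 h, with -2.12 to -3.23 at 72 h. Airn, the imprinted RNA transcribed antisense to Igf2r, had 1015 and 1125 at 0 h, 1088 and 1188 at 6 h, 727 and 697 at 24 h, and 549 and 552 at 72 h. It was lower, with -0.59 ± 0.07 (adjusted p = 0.00195) at 24 h and -0.96 ± 0.07 (adjusted p = 0.000239) at 72 h, and all 3 of its measured probes were lower at both. Igf2r was higher at these times, and a link between Airn and Igf2r was not tested. Tns3, listed for the region of Igfbp3, was lower from 6 h on, with -0.66 ± 0.08 (adjusted p = 0.00713) at 6 h and -1.29 ± 0.08 (adjusted p = 0.00016) at 72 h. Its distance from Igfbp3 was not measured here.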

How the data were processed

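RNA of Csk-/- fibroblasts was measured on 1-colour Agilent arrays, 2 at each of 4 times. Per the file headers, Feature Extraction 10.5.1.1 read the scans, with mm9 positions (10.7.3.1 per the submitters' processing notes), and the processed signal is a linear intensity per spot. The intensity in the deposited value table differed from it by at most 0.497%. The log2 of the processed signal minus the array's 75th percentile (signals of 370.3 to 393) was computed here from the deposited files. On each array 49.9% to 54.7% of spots passed as well above background, no spot was saturated and 146 to 208 outliers were left out. Spots of a probe were averaged, 28610 probes passed the filter on dim signals, and the brightest stood for each of 20840 genes. Names came from RefSeq by accession (26582 probes), symbol (2602) or synonym (492), with the file's name kept for 26005.

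The 4 time means were fitted to all 8 arrays with limma 3.58.1 in R 4.3.3 (4 residual and 1.71 prior degrees of freedom), with Benjamini-Hochberg adjustment over all genes and a threshold of 0.05. Errors beside differences are standard errors, and every adjusted p in the text is from limma. The script was tested on simulated data. The number of arrays limits the precision. The labels do not say that the 2 arrays of a time came from separate cultures, so p-values measure the spread between arrays, which may be technical. All arrays lay on 1 slide, with time following the row and replicate number the column, so row and time cannot be told apart. The members, lists and motifs were chosen with earlier results of these data known. Named list genes are up to 4 called ones with the largest difference at each time, and Adam9, Plat, Irs2, Akt1 and Akt2 were added after their values were seen. A gene that this rule names is not reported here. For members whose time means span at least 1 (log2), the 3 genes with the nearest differences from 0 h are named. Alternatives were other background corrections, scalings, filters, probe rules, fits and arrays left out. Sequences and figures used pandas 2.3.3 and matplotlib 3.10.9 (Python 3.11.15).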

Additional observations from a re-analysis of the deposited data

How the results depend on the processing

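The member genes' results were recomputed in 20 alternatives (19 for Igfbp2, which does not pass the filter on all 8 arrays). The calls of Igfbp2 and Igfbp4 at 24 h and 72 h and of Igf2r at 72 h against 0 h were kept in each. For Igfbp2 this adds no support, since its probe passed the filter through 0 h and 6 h alone. Counts of members called moved as follows. Lower at 6 h against 0 h were 0 in the report, and 1 with normexp, with the percentile over probes detected on all arrays, with quantile normalization, with the mean of a gene's probes and with only the 2 times compared, and 0 to 1 with arrays left out. Higher at 6 h was 1 with the mean of a gene's probes. Higher at 24 h against 0 h were 0 with the percentile over detected probes, quantile normalization, no filter and only the 2 times compared, and 0 to 1 with arrays left out. Lower at 24 h against 0 h were 2 in the report, 1 with probes well above background on all 8 arrays, 3 with normexp, the percentile over detected probes, quantile normalization and a variance trend (Igf1r added), and 2 to 3 with arrays left out (Igfbp3 or Igf1r added without the first or the second 24 h array). Lower at 72 h against 0 h were 2 under median scaling and 3 to 5 with arrays left out (3 without the first 0 h or second 72 h array). Between 24 h and 6 h, higher were 0 with no filter and only the 2 times compared and 0 to 1 with arrays left out, and lower were 4 with a variance trend. Between 72 h and 24 h, higher were 0 under median scaling, no filter and only the 2 times compared, 2 with a variance trend and 0 to 1 with arrays left out. Lower at that step were 0 in those 3 settings, 2 with the mean of probes or a variance trend, and 0 to 2 with arrays left out. Values that changed sign were small and uncalled in all but 1 case. Igf1 at 6 h was 0.33 (adjusted p = 0.0167 by limma) with the mean of its probes, 0.033 under median scaling and -0.081 to 0.043 with arrays left out. Under median scaling the signs turned for Igf2r at 6 h (0.0096), Igf1 at 24 h (0.053, and 0.063 with the mean of probes), Igfbp6 at 24 h (0.071), Igf1 (0.020) and Igf1r (0.080) between 24 h and 6 h, and Igfbp4 (0.026) between 72 h and 24 h. Igf1r at 72 h was -0.022 with normexp, -0.079 with the percentile over detected probes and -0.069 with quantile normalization. With arrays left out, the ranges reached across 0 for Igf1r at 72 h (-0.013 to 0.049) and between 24 h and 6 h (-0.091 to 0.058), for Igfbp7 at 6 h (-0.19 to 0.040), and between 72 h and 24 h for Igfbp7 (-0.35 to 0.099), Igfbp4 (-0.049 to 0.036) and Igfbp2 (-0.54 to 0.21). Median scaling moved the median of all genes by 0.15 at 24 h and 0.18 at 72 h and raised the share of calls that were higher to 76.9% at 6 h, 74.7% at 24 h and 75.1% at 72 h, and to 69.0% between 24 h and 6 h and 61.7% between 72 h and 24 h. The shares were 58.8%, 51.5%, 52.7%, 48.1% and 49.9% in the report's setting. With the percentile over detected probes they were 38.4% at 6 h, 40.9% at 24 h and 39.6% at 72 h, and 47.0% at 6 h with quantile normalization. Correlations of same-numbered deviations between times were 0.0557 to 0.171, and 2 of 6 exceeded 0.1. These values do not settle whether the replicate numbers pair the arrays, and the report's fit did not pair them. With the replicate block the count of members lower at 72 h was 6 against 5, with Igfbp7 added, and between 24 h and 6 h it was 3 against 2, with Igfbp3 added. The cause of these changes was not tested. At 24 h and 72 h the signal over background limits what can be said of Igfbp2, and at every time of Igf2 and Igfbp5.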

Other observations

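The genes whose profile lay nearest to those of the binding proteins were looked up among 13024 named genes, by Euclidean distance over the 3 differences from 0 h (6 h, 24 h and 72 h, means of 2 arrays each). None is given for Igfbp2, whose signals at 24 h and 72 h were not well above background. For Igfbp4 they were F8 (distance 0.0929), Styxl1 (0.102) and Pdlim4 (0.103). For Igfbp3 they were Lcmt2 (0.0487), the tyrosine kinase gene Fes (0.0724) and the transcription factor gene Maf (0.0977). All 3 differences of a gene share the 0 h arrays, so these distances describe the profiles only.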
